A study of Homo sapiens with 21 samples.

Results

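The combination shARID1A/B.4.2 was compared with Control in cells of the established neuroblastoma line SK-N-BE(2), which is human. The comparison used 6 of the 21 ATAC-seq libraries of the series, namely Control replicates 1, 2 and 3 and shARID1A/B.4.2 replicates 1, 2 and 3, over all consensus sites. All cells received lentiviral particles and were collected 72 h later. Control cells carried a non-silencing shRNA according to the study, and the combination carried shRNAs against ARID1A and ARID1B together. The numbers in its name are those of the single hairpins shARID1A.4 and shARID1B.2, and the other combination, shARID1A/B.2.3, carries the numbers of shARID1A.2 and shARID1B.3. Each library was made from a population of transduced cells of 1 line, and nothing in the labels says that replicates came from separate cultures, so that the p-values measure the spread between these libraries.

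ARID1A and ARID1B are alternative structural subunits of the BAF complex, an ATP-dependent remodeller of the SWI/SNF family that moves and evicts nucleosomes. BAF is known to keep distal regulatory elements such as enhancers open, where lineage transcription factors bind. In ATAC-seq the Tn5 transposase cuts open DNA, so that the read count over a site rises with its accessibility. In a population of cells, a fall in the share of cells with an open site and a fall in access within each cell cannot be told apart.

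The sequences of 4 sites are shown first. Of these, 3 are among the 6 largest falls and hold a HAND or TWIST E-box in the window, a motif more frequent at closed sites. The other is a site annotated as an ARHGEF2 promoter, 12.6 kb upstream of the TSS used for its distance, a large rise without the motif. Each run is the central 300 bases of the site, or the whole site where it is shorter, on the plus strand of GRCh38, 5′ to 3′. Capitals mark the letters CATCTG or their reverse complement CAGATG, a hexamer that HAND and TWIST proteins, lineage factors of sympathetic and neural crest cells, are known to bind. A match is a description of the letters and not evidence of binding.
FOXD2, fall, chr1:47618491-47618790: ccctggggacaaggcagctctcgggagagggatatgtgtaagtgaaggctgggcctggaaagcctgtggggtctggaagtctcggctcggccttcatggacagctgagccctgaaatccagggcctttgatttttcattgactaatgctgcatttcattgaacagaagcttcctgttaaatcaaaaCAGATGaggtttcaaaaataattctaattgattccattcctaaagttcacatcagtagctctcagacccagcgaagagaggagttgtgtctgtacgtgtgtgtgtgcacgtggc
LOC101928519, fall, chr6:19070450-19070749: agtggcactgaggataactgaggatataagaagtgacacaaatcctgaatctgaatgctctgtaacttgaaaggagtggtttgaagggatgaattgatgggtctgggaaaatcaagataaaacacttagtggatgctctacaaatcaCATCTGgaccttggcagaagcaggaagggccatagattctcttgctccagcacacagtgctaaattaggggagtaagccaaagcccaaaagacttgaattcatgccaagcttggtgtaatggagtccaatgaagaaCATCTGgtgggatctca
RP11-664H17.1, fall, chr12:19978206-19978505: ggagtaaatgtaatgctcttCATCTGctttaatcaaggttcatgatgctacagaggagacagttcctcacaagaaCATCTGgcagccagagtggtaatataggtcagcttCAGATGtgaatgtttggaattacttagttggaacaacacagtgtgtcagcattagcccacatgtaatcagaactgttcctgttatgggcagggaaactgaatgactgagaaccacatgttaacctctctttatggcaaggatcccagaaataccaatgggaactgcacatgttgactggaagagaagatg
ARHGEF2, rise, chr1:155983545-155983844: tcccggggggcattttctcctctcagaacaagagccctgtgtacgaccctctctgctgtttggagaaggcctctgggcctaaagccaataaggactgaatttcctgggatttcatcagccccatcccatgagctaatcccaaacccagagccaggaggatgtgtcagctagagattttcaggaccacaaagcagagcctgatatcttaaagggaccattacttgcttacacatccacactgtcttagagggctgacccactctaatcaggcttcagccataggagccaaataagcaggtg
The window of RP11-664H17.1 held 3 such hexamers, that of LOC101928519 held 2, and that of FOXD2 held 1. No match was found in the windows of ARHGEF2 and of COMMD9, the site with the largest fall. The 4 sites were picked to show the letters, and other sites went the other way: the window of the MIR3189 promoter, a rise, held 1 match, and those of the PAMR1 and MC2R promoters, both falls, held none.

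The Control libraries held 21292613, 23640795 and 25188802 reads in sites, and the shARID1A/B.4.2 libraries held 23043869, 22181183 and 22243335. Of 367900 consensus sites, 357029 passed the filter on low counts and were tested with edgeR together with all other groups. Values are in CPM, read counts scaled by TMM to a common depth of 1000000 reads in sites. Sites that passed a false discovery rate (FDR) of 0.01 are called closed where the combination was lower and opened where it was higher. Sites are named for their nearest gene, and they may regulate another. ATAC-seq does not measure whether the shRNAs lowered their transcripts. The ARID1A promoter site (chromosome 1, 26695337 to 26696256) measured 7.99, 5.14 and 7.46 CPM in Control and 9.45, 8.97 and 9.55 CPM in the combination (edgeR log2 change 0.45 ± 0.13 SE, FDR 0.0104), which did not pass the threshold. Over 17 other settings of the fit its log2 change ran from -0.03 with offsets for GC content to 0.56, and it passed in 9 of them. The ARID1B site nearest to the start (chromosome 6, 156776532 to 156780619, exon 1 of 19) measured 42.6, 37.3 and 42.3 CPM in Control and 51.8, 50.7 and 53.8 CPM in the combination (log2 change 0.36 ± 0.08 SE, edgeR FDR 0.0008). That call was lost with promoter scaling, where the log2 change was 0.04, with abundance-trended and GC offsets, where it was 0.0 and 0.1, and without shARID1A/B.4.2 replicate 3.

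As a check of the cell line, 7 of 10 adrenergic neuroblastoma markers had a tested site within 1 kb of their TSS. The sum over these sites was 145 CPM in Control and 167 CPM in the combination, with no site called. Of 9 mesenchymal markers 6 had such a site, with sums of 165 and 168 CPM and 1 opened site, at FOSL1. Markers of other cells had sites too. Their median Control values were 2.79 CPM for endothelial and 9.18 CPM for Schwann markers, against 23.6 CPM for adrenergic and 33.8 CPM for mesenchymal markers. Single markers overlapped, with KDR at 11.8 CPM and ERBB3 at 16.1 CPM above DBH at 10.3 CPM and TH at 2.43 CPM in Control. Endothelial markers had sites at 3 of 4 genes with a sum of 16.7 CPM in both groups, Schwann markers at 2 of 5 genes with 18.4 and 21 CPM, leukocyte markers at 1 of 5 genes (CD14, 4.3 and 6.53 CPM, opened) and hepatocyte markers at 0 of 3.

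The main question was which chromatin sites change when both subunits are silenced with this pair of hairpins. Distal sites near regulators of the sympathetic lineage, adhesion molecules, guidance receptors and matrix genes were among those that closed. These kinds of genes differed, and some closed at shares near or under that of all distal sites, as given below. Promoters were the class that opened most often. Over 1 kb from a TSS, 7.64% of all sites closed and 2.18% opened. The closed share there was 13.7% for integrins, 12.6% for adrenergic transcription factors and 11.6% for axon guidance genes. It was 9.72% for collagens, laminins and fibronectin, 8.83% for cadherins and 6.62% for lysyl oxidases, matrix metalloproteases and TIMPs. Adrenergic transcription factors also opened more often there, at 5.58%. In all, 26324 sites closed, 7.37% of those tested, and 14171 opened, 3.97%, so that 65.0% of the changed sites were closed (edgeR, FDR under 0.01). Closed sites had a median log2 change of -1.01, with 10th and 90th percentiles of -1.68 and -0.59, and opened sites one of 0.57, with percentiles of 0.37 and 1.05. The typical closed site fell from 4.01 to 1.98 CPM, and the typical opened site rose from 10.2 to 15.1 CPM (medians over sites of the group means). At 26025 closed and 14083 opened sites the 3 libraries of the combination did not overlap the 3 Control libraries. The calls rest on these same libraries, so that this separation largely follows from how the sites were chosen. Over all tested sites 16.1% were lower and 13.4% higher without overlap. Of the closed sites 13480 (3.78% of tested sites) fell by 1 or more on the log2 scale, and 1620 of the opened sites (0.454%) rose by as much.

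The balance of directions depends on the scaling. With TMM factors from promoter sites, 52684 sites closed and 2873 opened, so that 94.8% of changed sites were closed, and the median log2 change over all sites shifted from -0.00 to -0.33. The changed sites were spread over 9794 nearest genes with a closed site and 10904 with an opened site, and 3996 genes had both. As a description of the called sites, closed sites took 16.9% to 17.2% of the reads in Control and 9.04% to 9.07% in the combination, whereas promoter-TSS sites took 20.0% to 20.6% and 24.8% to 25.1%.

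Of the 6 largest falls, 4 are described here. The site nearest to COMMD9, a gene of an endosomal recycling complex, lay 56.0 kb from its TSS in an intergenic stretch (chromosome 11, 36233326 to 36233549). It measured 2.26, 2.26 and 2.53 CPM in Control and 0.314, 0.138 and 0.139 CPM in the combination, where these values rest on 7, 3 and 3 reads. The groups lay far apart, with an 11.6-fold fall (log2 change -3.54 ± 0.32 SE, edgeR FDR 1.18e-15). The intergenic site 183 kb from FOXD2, a forkhead transcription factor gene (chromosome 1, 47618108 to 47619173), went from 9.82, 9.0 and 8.7 CPM to 1.21, 0.874 and 0.696 CPM. This 9.8-fold fall (log2 change -3.29 ± 0.18 SE, edgeR FDR 6.32e-28) rested on the highest Control values of the falls described here.

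In intron 10 of 10 of LOC101928519, a non-coding gene (chromosome 6, 19070343 to 19070857), accessibility fell from 5.34, 4.48 and 4.49 CPM to 0.538, 0.506 and 0.557 CPM (log2 change -3.14 ± 0.22 SE, edgeR FDR 2.69e-21). Upstream of RP11-664H17.1 by 36.3 kb (chromosome 12, 19978045 to 19978667), it fell from 4.91, 4.31 and 3.77 CPM to 0.538, 0.506 and 0.464 CPM (log2 change -3.09 ± 0.23 SE, edgeR FDR 3.55e-20). At all 4 sites the highest silenced library stayed below the lowest Control library. None of the 4 passed the threshold against the other combination, where the log2 differences ran from -0.83 at COMMD9 to 0.37 at FOXD2.

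**Figure D1:**
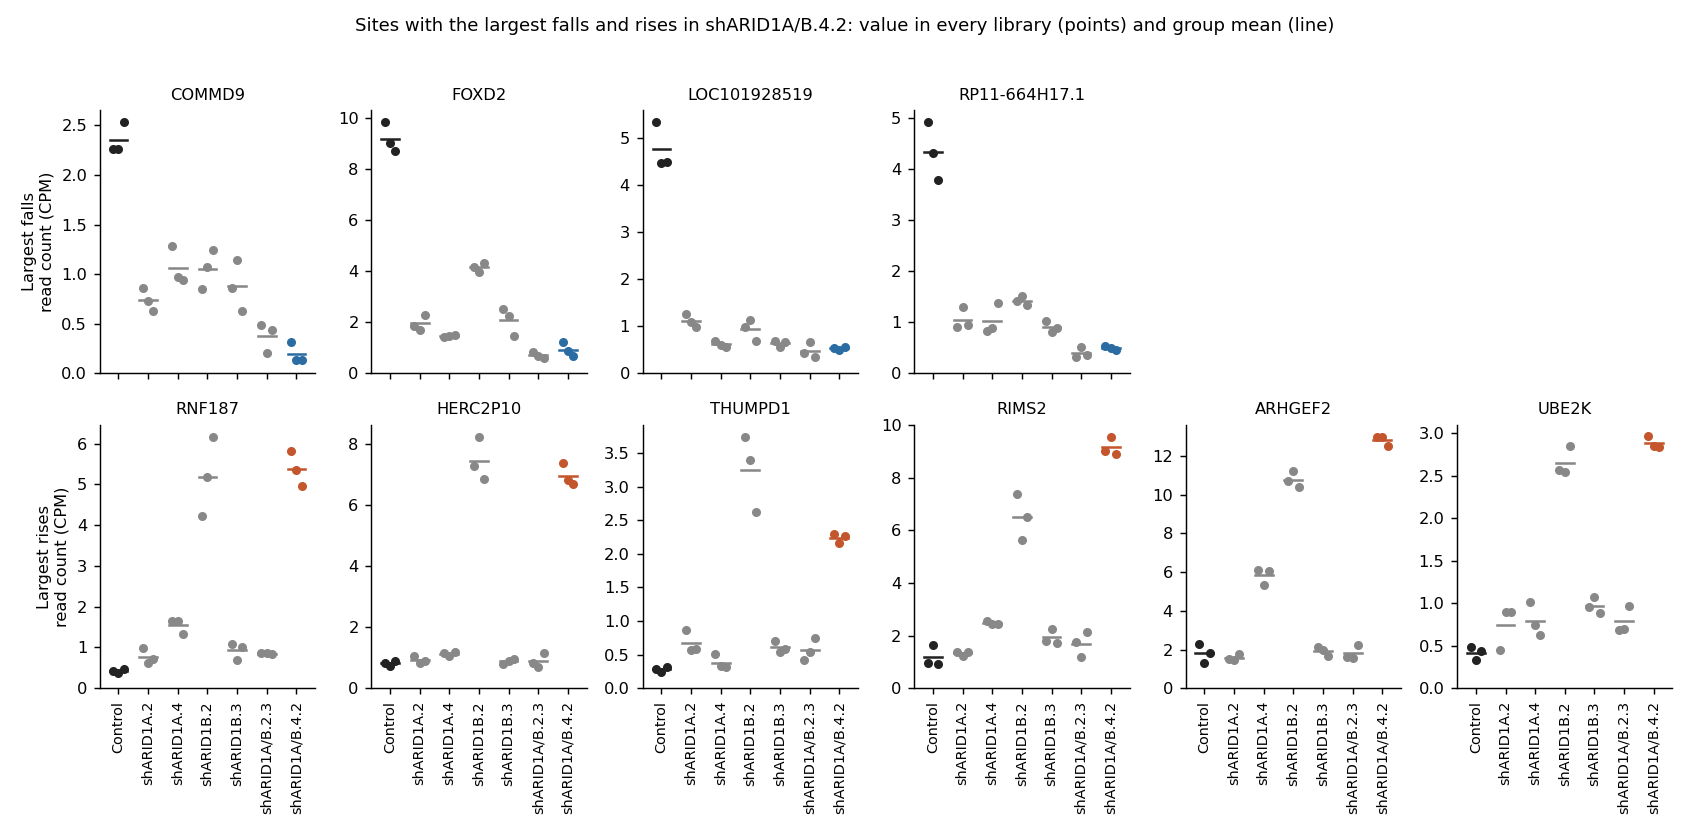
Read counts (CPM, linear axes from 0) of every library in all 7 groups at 4 of the 6 sites with the largest falls (upper panels) and the 6 with the largest rises (lower panels), named by nearest gene; points are libraries and lines are group means of 3. At the FOXD2 site the 3 combination libraries sit between 0.696 and 1.21 CPM against 8.7 to 9.82 CPM in Control, and at the RNF187 site between 4.96 and 5.82 CPM against 0.37 to 0.481 CPM.

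The largest rise lay in intron 2 of 3 of RNF187, a RING-type ubiquitin ligase gene (chromosome 1, 228490384 to 228490908). It went from 0.433, 0.37 and 0.481 CPM in Control to 5.82, 5.34 and 4.96 CPM, a 12.4-fold rise (log2 change 3.64 ± 0.22 SE, edgeR FDR 1.55e-24). A site named for HERC2P10, a pseudogene, lay in intron 1 of 15 of FAN1, a DNA repair nuclease gene (chromosome 15, 30845439 to 30847533), and rose from 0.818, 0.74 and 0.882 CPM to 7.39, 6.81 and 6.68 CPM (log2 change 3.09 ± 0.18 SE, edgeR FDR 8.4e-26). Pseudogenes share sequence with their parent genes, but this site lay 28.4 kb from the HERC2P10 TSS. How uniquely its reads map was not tested. The last exon of THUMPD1, a cofactor of tRNA acetylation (chromosome 16, 20735286 to 20736056), rose from 0.289, 0.247 and 0.321 CPM to 2.29, 2.16 and 2.27 CPM (log2 change 2.95 ± 0.29 SE, edgeR FDR 2.3e-14).

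In intron 3 of 29 of RIMS2, which encodes a scaffold of the presynaptic release zone (chromosome 8, 103652130 to 103653603), values rose from 0.962, 1.64 and 0.922 CPM to 9.01, 9.57 and 8.9 CPM (log2 change 2.95 ± 0.17 SE, edgeR FDR 5.88e-26). A promoter site of ARHGEF2, an exchange factor that activates small GTPases (chromosome 1, 155983195 to 155984195), rose from 2.26, 1.31 and 1.84 CPM to 13, 13 and 12.5 CPM (log2 change 2.84 ± 0.15 SE, edgeR FDR 3.93e-29). This site is annotated as promoter-TSS but lies 12.6 kb upstream of the TSS used for its distance. The sixth rise lay in exon 33 of 33 of PDS5A, a cohesin regulator gene, and was named for UBE2K (chromosome 4, 39823217 to 39823967). It measured 0.481, 0.329 and 0.441 CPM in Control and 2.96, 2.85 and 2.83 CPM in the combination (log2 change 2.78 ± 0.25 SE, edgeR FDR 7.73e-16). Unlike the falls, all 6 rises were also higher than in shARID1A/B.2.3, by log2 differences of 1.91 to 3.03 (edgeR FDR under 0.01 at each).

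The location of the changed sites was examined next. Promoter-TSS sites opened far more often than they closed. Of 12310 tested promoter-TSS sites, 4970 opened (40.4%) and 316 closed (2.57%), with a median log2 change of 0.31. Introns went the other way, with 8.12% closed and 2.73% opened, as did intergenic sites with 7.29% and 1.69%. Exon sites opened at 14.3% and closed at 4.44%, and sites at transcription ends opened and closed at like rates of 6.02% and 6.74%. The promoter excess in opened sites depends on the offsets. The median promoter log2 change was 0.15 with abundance-trended offsets, 0.17 with GC offsets and -0.01 with promoter scaling. Within 1 kb of a TSS the counts of opened and closed sites were 6744 and 354 as reported, 3883 and 789 with abundance-trended offsets, 4155 and 626 with GC offsets, and 1380 and 1520 with promoter scaling.

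Closing was nearly flat from 1 to 500 kb. It reached 2.08% of 17022 sites within 1 kb of a TSS, 7.98% from 1 to 3 kb, 7.64% from 10 to 50 kb and 8.18% from 50 to 100 kb, and 4.92% beyond 500 kb. Opening declined at every step, from 39.6% within 1 kb to 8.18% from 1 to 3 kb, 1.72% from 50 to 100 kb and 0.756% beyond 500 kb. The median closed site thus lay 54.6 kb from a TSS and the median opened site 1.8 kb, against 50.7 kb over all tested sites.

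**Figure D2:**
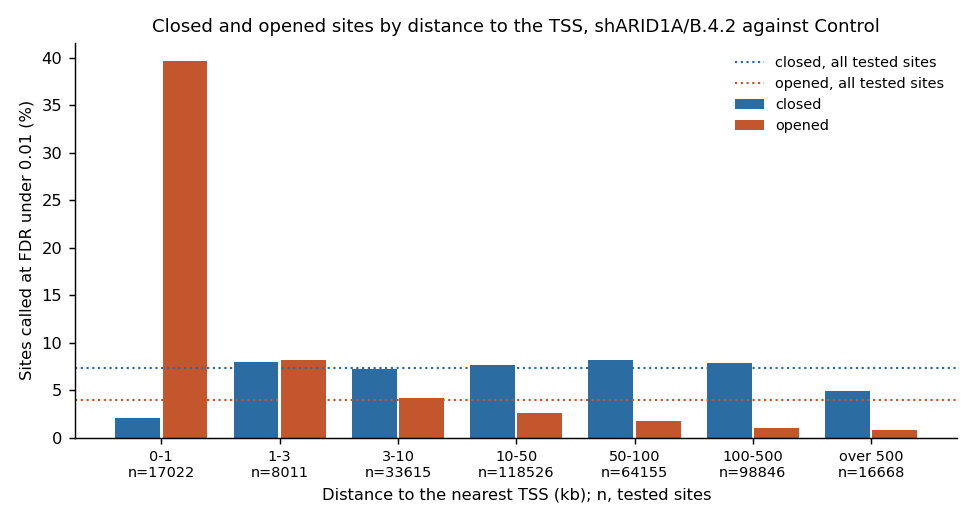
Share of tested sites called closed or opened at FDR under 0.01 (vertical axis, %) by distance to the nearest TSS (kb, with the number of tested sites); dotted lines are the shares over all tested sites, 7.37% closed and 3.97% opened. The opened share falls from 39.6% within 1 kb to 0.756% beyond 500 kb, and the closed share is lowest within 1 kb at 2.08%.

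Calls are easier where counts are high, so location was also read among the sites with the most reads. In the top decile of mean CPM over all 21 libraries, 22489 sites lay over 3 kb from a TSS, and 31.5% of them closed and 14% opened. In the same decile 11659 sites lay within 1 kb, and 1.28% of them closed and 55.7% opened. The median log2 change was -0.09 and 0.37 in these classes. Depth was not matched within the decile, since the median of the mean counts was 7.5 CPM in the distal class and 20.0 CPM within 1 kb. Base composition moved with the calls as well, with a median GC content of 43.9% where sites closed and 58.4% where they opened, against 46.9% for tested sites in general. Among sites within 1 kb of a TSS whose GC content was under the median, 5.72% opened and 7.72% closed, whereas distal sites in the top GC decile opened at 8.51% and closed at 3.61%. The part of base composition in the result was not tested further than by the GC offsets above.

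**Figure D3:**
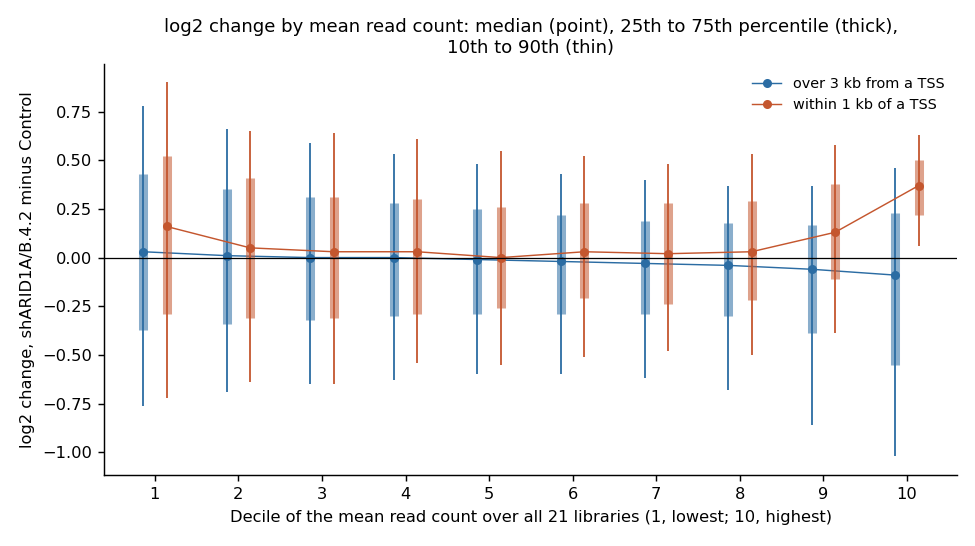
log2 change of the combination against Control (vertical axis) by decile of the mean read count over all 21 libraries (horizontal axis, 1 lowest, 10 highest), for sites within 1 kb of a TSS and over 3 kb from a TSS; points are medians, thick bars the 25th to 75th and thin bars the 10th to 90th percentiles over sites. In the top decile the medians are 0.37 near and -0.09 far from a TSS, and the far sites reach down to a 10th percentile of -1.02.

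Chromosomes differed. On chromosome 19, which is rich in genes, 28.4% of tested sites opened and 2.75% closed, with a median log2 change of 0.42. On chromosome 13, 14.4% closed and 3.41% opened, with a median of -0.2. Of 2803 windows of 1 Mb with at least 20 tested sites, the 4 with the largest opened share were all on chromosome 19, led by 58 to 59 Mb with 28 of 34 sites opened and by 36 to 37 Mb with 23 of 35. Both hold clusters of zinc finger genes, such as ZSCAN22 and ZNF146. The 4 windows with the largest closed share included 49 to 50 Mb and 60 to 61 Mb of chromosome 1, with 12 of 21 and 17 of 30 sites closed, and 8 to 9 Mb of chromosome 3 with 22 of 44. The median window had 7.14% of its sites closed and 2.78% opened.

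At some genes most sites were called closed. Of 9089 genes with at least 10 tested sites, 67 had at least 50% of them closed and 4 had at least 50% opened. CTNNB1 encodes beta-catenin, the adaptor of cadherin junctions and WNT signalling. It was the nearest gene of 13 sites, of which 10 closed and 0 opened, with a median log2 change of -1.25. The closed sites lay 105265 to 376220 bases from its TSS, in introns of ULK4 or between genes. The CTNNB1 promoter site was not called, with means of 15.3 CPM in Control and 17.3 CPM in the combination (log2 change 0.18, edgeR FDR 0.278). TRABD2B, a WNT-inactivating protease gene, had 20 of 29 sites closed. SIAH3 had 9 of 13 closed, and so did AGBL4-IT1. On the other side, the largest opened share of a gene was 62.5%. Counts per gene are not given with promoter scaling, which moves sites towards closing. TERT, the catalytic subunit of telomerase, had a smaller share than that, with 5 of 10 sites opened and 0 closed and a median log2 change of 0.63. CA5A, a mitochondrial carbonic anhydrase gene, also had 5 of 10 opened, and MAP2K3, a p38 kinase activator, had 5 of 11.

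Promoters also fell in places. The 4 largest promoter falls were at LOC285692, C4orf6, PAMR1 and MC2R. LOC285692, a non-coding gene (chromosome 5, 9903481 to 9904491), went from 12.0, 10.6 and 9.94 CPM to 1.84, 1.7 and 1.53 CPM (log2 change -2.67 ± 0.16 SE, edgeR FDR 4.39e-25). The C4orf6 promoter (chromosome 4, 5524597 to 5525716) went from 12.2, 10.6 and 9.66 CPM to 1.66, 2.21 and 2.13 CPM (log2 change -2.43 ± 0.15 SE, edgeR FDR 3.92e-25). PAMR1 encodes a secreted protease-like protein, and its promoter site (chromosome 11, 35529664 to 35531229) went from 13.6, 13.1 and 14.4 CPM to 2.42, 2.21 and 3.25 CPM (log2 change -2.38, edgeR FDR 1.95e-26). This site lay 4415 bases upstream of the TSS used for its distance. MC2R, the receptor for adrenocorticotropic hormone, went from 3.95, 4.44 and 3.37 CPM to 0.941, 0.828 and 1.02 CPM (log2 change -2.07, edgeR FDR 1.21e-13). Besides ARHGEF2, the largest promoter rises were at MIR3189, a microRNA gene within GDF15, from 0.914, 0.699 and 0.802 CPM to 4.57, 4.1 and 4.54 CPM (log2 change 2.45, edgeR FDR 2.03e-17), at GNAL, an alpha subunit of olfactory-type G proteins, named for LOC102724524 (log2 change 1.67, edgeR FDR 4.43e-13), and at ZFR2 (log2 change 1.64, edgeR FDR 5.78e-09).

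Gene lists were read by counts of their sites, against 7.37% closed and 3.97% opened over all sites. A list's share is a description, since sites of a gene are not independent. Promoter scaling moves every list towards closing, and the counts under it are given where the order of directions turned. Sites within 1 kb of a TSS are named below as start sites.

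Integrins, the receptors for extracellular matrix, had 34 of 265 sites closed (12.8%) and 11 opened (4.15%), with a list median of -0.01. In intron 12 of 28 of ITGA8 (chromosome 10, 15635287 to 15637183), accessibility fell from 10.7, 10.7 and 9.7 CPM to 3.0, 2.3 and 2.55 CPM (log2 change -1.98 ± 0.14 SE, edgeR FDR 2.08e-21). A site 45.5 kb upstream of ITGA4 fell from 15.7, 16.5 and 13.9 CPM to 5.06, 4.88 and 5.05 CPM (log2 change -1.62 ± 0.13 SE). The start site of ITGA9 rose from 9.24, 7.03 and 9.62 CPM to 13.1, 13.3 and 12.9 CPM (log2 change 0.61 ± 0.11 SE, edgeR FDR 1.73e-05), and this call was lost with promoter scaling (log2 change 0.29, edgeR FDR 0.0234). Cadherins, the receptors of cell-cell junctions, had 78 of 890 sites closed (8.76%) and 14 opened (1.57%). A site 640 kb from CDH11 fell from 21.8, 22.0 and 18.8 CPM to 6.05, 6.72 and 5.7 CPM (log2 change -1.76 ± 0.11 SE), and an intron of CDH18 fell by 1.66 on the log2 scale. CDH22 had a site that rose from 5.97, 5.38 and 6.61 CPM to 12.1, 10.8 and 10.5 CPM.

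Collagens, laminins and fibronectin, the fibrous matrix, had 114 of 1203 sites closed (9.48%) and 23 opened (1.91%). Intron 20 of 51 of COL1A2, a chain of type I collagen (chromosome 7, 94409637 to 94411156), fell from 8.37, 9.78 and 8.98 CPM to 2.15, 1.84 and 1.72 CPM (log2 change -2.25 ± 0.15 SE, edgeR FDR 2.7e-22). COL21A1 fell by 1.95 on the log2 scale at an intron 1 site, whereas a site 11 kb upstream of COL16A1 rose with a log2 change of 0.79. Lysyl oxidases, matrix metalloproteases and TIMPs, which crosslink and cut the matrix, had 27 of 434 sites closed (6.22%) and 13 opened (3.0%), both under the shares over all sites. MMP28 fell from 15.7, 14.2 and 15.6 CPM to 4.39, 4.42 and 4.5 CPM at a site 6.11 kb upstream, MMP14 fell by 1.27 on the log2 scale at its transcription end, and MMP10 had an intergenic site that rose from 12.1, 12.1 and 11.2 CPM to 21.4, 22.1 and 20.7 CPM.

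Axon guidance genes, whose ligands and receptors steer growth cones, had 267 of 2360 sites closed (11.3%) and 51 opened (2.16%). Intron 11 of 17 of NRP2, a co-receptor for semaphorins (chromosome 2, 205745640 to 205748041), fell from 28.1, 25 and 26.4 CPM to 8.02, 7.22 and 7.56 CPM (log2 change -1.8 ± 0.11 SE, edgeR FDR 1.32e-25). SLIT2, a repulsive ligand, was the nearest gene of a site 1010 kb upstream that fell from 12.2, 12.0 and 11.5 CPM to 2.51, 2.58 and 2.78 CPM (log2 change -2.18 ± 0.13 SE). The start site of UNC5B, a netrin receptor, rose from 14.9, 10.5 and 14.6 CPM to 23.3, 21.7 and 21.8 CPM. Receptor tyrosine kinases had 86 of 836 sites closed (10.3%) and 19 opened (2.27%). A site 56.0 kb upstream of ALK, the kinase mutated in familial neuroblastoma (chromosome 2, 29977201 to 29977977), fell from 9.38, 8.05 and 9.18 CPM to 2.15, 2.72 and 2.32 CPM (log2 change -1.89 ± 0.15 SE, edgeR FDR 2.59e-19). MUSK, the agrin-activated kinase of the neuromuscular junction, fell by 1.93 on the log2 scale in intron 7 of 13. KIT, the receptor of stem cell factor, had an intronic site that rose from 3.37, 3.21 and 3.49 CPM to 6.27, 7.32 and 6.4 CPM (log2 change 0.99 ± 0.14 SE).

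Adrenergic transcription factors, which define the sympathetic state of neuroblastoma cells, had 79 of 647 sites closed (12.2%) and 44 opened (6.8%). INSM2, a neuroendocrine zinc finger gene, had a site 24.2 kb upstream (chromosome 14, 35509295 to 35510385) that fell from 9.72, 9.37 and 9.7 CPM to 2.73, 2.35 and 2.64 CPM (log2 change -1.9 ± 0.14 SE, edgeR FDR 4.04e-20). TFAP2B fell by 1.38 on the log2 scale 114 kb from its TSS, and the gene body site of SOX11 rose from 48.2, 52.3 and 47.3 CPM to 83.3, 78.7 and 80.7 CPM (log2 change 0.72 ± 0.08 SE). Mesenchymal transcription factors had 37 of 473 sites closed (7.82%) and 25 opened (5.29%). TBX18 had a site that fell from 12.7, 15.2 and 12.4 CPM to 4.7, 3.96 and 3.76 CPM, and a site in HDAC9 named for TWIST1 fell by 0.94 on the log2 scale. FOSL2, which also belongs to AP-1, rose at a promoter site from 77.8, 62.7 and 76.0 CPM to 123, 119 and 121 CPM. AP-1 factors, the FOS and JUN relatives, had 12 of 148 sites closed (8.11%) and 18 opened (12.2%). That order turned with promoter scaling (26 closed, 9 opened) and with abundance-trended offsets (13 and 11). Of the 14 AP-1 start sites 11 opened, against 39.6% of all start sites. Over 1 kb from a TSS 8.96% of AP-1 sites closed and 5.22% opened, against 7.64% and 2.18% of all such sites. JUND rose from 31.6, 29.1 and 34.1 CPM to 55.5, 54.9 and 56.7 CPM at its only exon (log2 change 0.82 ± 0.09 SE, edgeR FDR 9.52e-12), whereas MAF fell by 1.79 and ATF3 by 1.47 on the log2 scale.

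Catecholamine genes, which make, store and transport noradrenaline, had 25 of 225 sites closed (11.1%) and 14 opened (6.22%). SLC18A2, the vesicular monoamine transporter, fell from 9.48, 8.51 and 7.46 CPM to 1.97, 2.3 and 2.46 CPM at a site 19.6 kb upstream (log2 change -1.91 ± 0.15 SE). A site in ITPK1 named for CHGA, a granule protein, fell by 0.98, and the start site of its relative CHGB rose from 20.7, 18.9 and 19.4 CPM to 32.5, 31.1 and 35.7 CPM. Glutamate and GABA receptors had 108 of 1771 sites closed (6.1%) and 32 opened (1.81%), under the shares over all sites. GABRP fell from 12.3, 10.7 and 11.9 CPM to 2.55, 2.16 and 2.74 CPM. An intron of GABRA4 rose from 2.79, 2.88 and 3.09 CPM to 8.42, 9.11 and 7.7 CPM (log2 change 1.52 ± 0.14 SE, edgeR FDR 7.97e-16). TGF-beta and BMP genes had 78 of 1107 sites closed (7.05%) and 34 opened (3.07%), also under both shares over all sites. BAMBI, a decoy receptor, fell by 1.68 in intron 2 of 2, although 5 of its 12 sites opened and 1 closed. TGFBR3, the co-receptor betaglycan, fell by 1.61, and a site in SCG5 named for the BMP antagonist GREM1 rose from 7.07, 5.63 and 5.73 CPM to 12.1, 10.8 and 12.6 CPM.

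BAF, PBAF and ncBAF subunit genes had 30 of 369 sites closed (8.13%) and 24 opened (6.5%), and 17 of their 26 start sites opened, against 39.6% of all start sites. The opened sites of the list numbered 12 with GC offsets and 4 with promoter scaling. A site 61.6 kb upstream of BRD7, a PBAF subunit, fell from 9.96, 7.36 and 9.1 CPM to 2.55, 2.16 and 1.76 CPM (log2 change -2.02 ± 0.15 SE), and a site 89.2 kb upstream of BCL11A fell by 1.15. BCL7A rose from 15.7, 11.3 and 17.0 CPM to 26.4, 25 and 28.2 CPM at its start site. Genes of the G1 to S transition had 11 of 338 sites closed (3.25%) and 26 opened (7.69%), which turned to 34 and 4 with promoter scaling. Of their 31 start sites 14 opened, against 39.6% of all start sites. Over 1 kb from a TSS 3.58% closed and 3.91% opened, against 7.64% and 2.18% of all such sites. The CCNE1 promoter, of cyclin E1, rose from 20.5, 17.8 and 20.8 CPM to 37.0, 37.6 and 35.4 CPM (log2 change 0.9 ± 0.1 SE, edgeR FDR 8.21e-12). Distal sites of E2F6 and of the replication factor MCM3 fell by 1.85 and 0.93 on the log2 scale. Cytosolic ribosomal protein genes had 17 of 353 sites closed (4.82%) and 57 opened (16.1%), which turned to 30 and 11 with promoter scaling. Of their 65 start sites 47 opened (72.3%) and 0 closed, against 39.6% opened over all start sites. With promoter scaling 9 opened (13.8%) and 0 closed, against 8.11% opened over all start sites. The closed sites of the list with the smallest p were distal. A site 422 kb from RPS29 fell by 2.41 and a PIN4 intron named for RPS4X fell by 1.94. Interferon-stimulated genes had 15 of 157 sites closed (9.55%) and 8 opened (5.1%). A site near IFI44 fell by 2.32 on the log2 scale, and a promoter site of ISG20 rose from 12.9, 12.2 and 15.0 CPM to 22.5, 23.5 and 25.1 CPM. Every site given a direction in these paragraphs on lists passed the edgeR test at FDR under 0.01 without overlap between the groups.

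**Figure D4:**
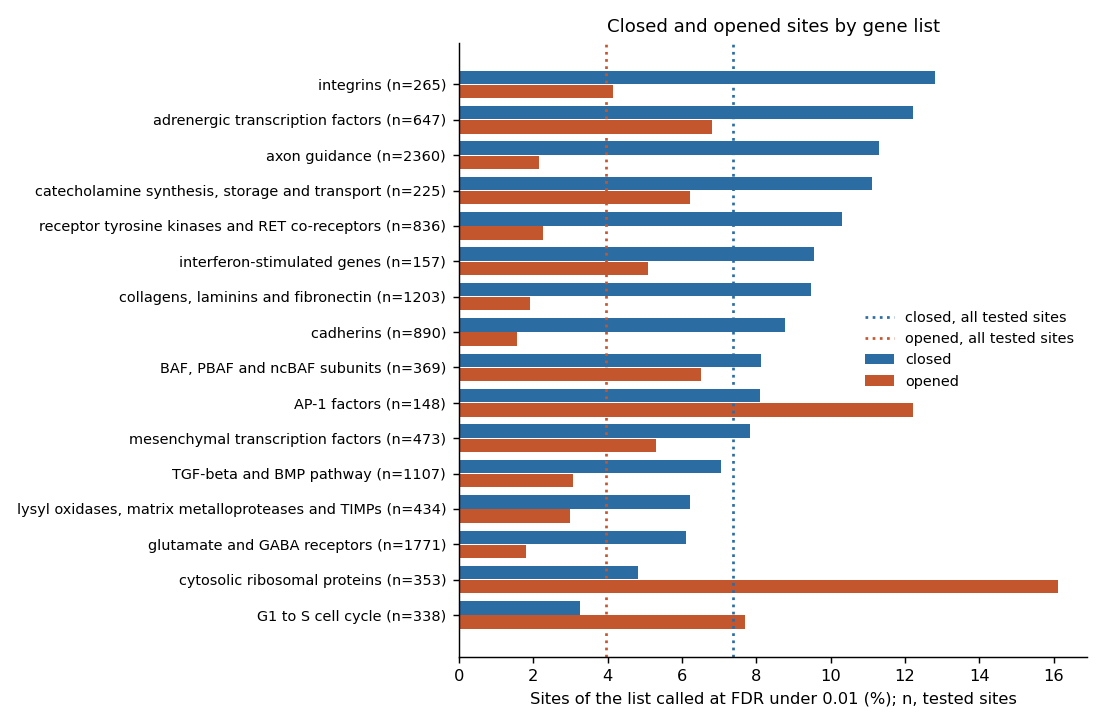
Share of the tested sites of each of 16 gene lists that closed or opened at FDR under 0.01 (horizontal axis, %; n, tested sites), with dotted lines at 7.37% closed and 3.97% opened for all tested sites. Integrins reach 12.8% closed and cytosolic ribosomal proteins 16.1% opened.

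Sequence composition of the changed sites was described with 13 short motifs, each searched on both strands in the central 300 bases of 357028 sites, and none of them holds another whole. The HAND or TWIST E-box CATCTG occurred in 33.4% of closed, 12.6% of opened and 23% of all sites, and in 37.4% of sites closed by a log2 change of at least 1. The homeodomain motif TAATTA occurred in 14.4%, 3.54% and 7.87%, and the GATA motif AGATAA in 24.5%, 8.3% and 17.0%. These motifs are shared by factors of the adrenergic state such as HAND2 and GATA3. Motifs of general promoter factors were more frequent at opened sites: the SP and KLF motif GGGGCGGG in 20.6% of opened, 1.1% of closed and 2.36% of all sites, the ETS motif CCGGAAG in 7.79%, 0.931% and 1.55%, the NRF1 motif GCGCATGC in 2.22%, 0.239% and 0.511%, and the CRE motif TGACGTCA in 1.42%, 0.152% and 0.223%. At sites opened by a log2 change of at least 1, however, the SP and KLF, ETS, NRF1 and CRE motifs occurred in 2.78%, 1.48%, 0.494% and 0.309%, near the shares over all sites. The AP-1 motif TGANTCA occurred in 13.1% of closed, 6.93% of opened and 10.9% of all sites, but in 15.7% of sites opened by a log2 change of at least 1. TEAD (GGAATG) occurred in 18.2%, 11.4% and 16.8%, NFY (CCAAT) in 38.9%, 28.0% and 35.5%, RUNX (TGTGGTT) in 6.14%, 3.25% and 5.4%, and SOX (ACAATGG) in 3.97%, 2.05% and 4.05%.

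Since promoters and distal sites differ in sequence, the shares were also taken over 3 kb from a TSS. There 10.8% of sites with the HAND or TWIST E-box closed against 6.66% without, 13.5% against 7.11% for the homeodomain motif and 10.7% against 6.98% for GATA. Sites with the CTCF motif AGGGGGCGC opened at 13.1% and closed at 1.79%, against 2.01% and 7.65% without it. In the top decile of mean CPM and the middle GC class, 43.5% of sites with the E-box closed against 34.4% without, and AP-1 made little difference with 37.5% against 36.8%. The CTCF motif was held by only 14 sites of that class, of which 2 opened. These are shares of sites, and no factor's binding was measured.

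**Figure D5:**
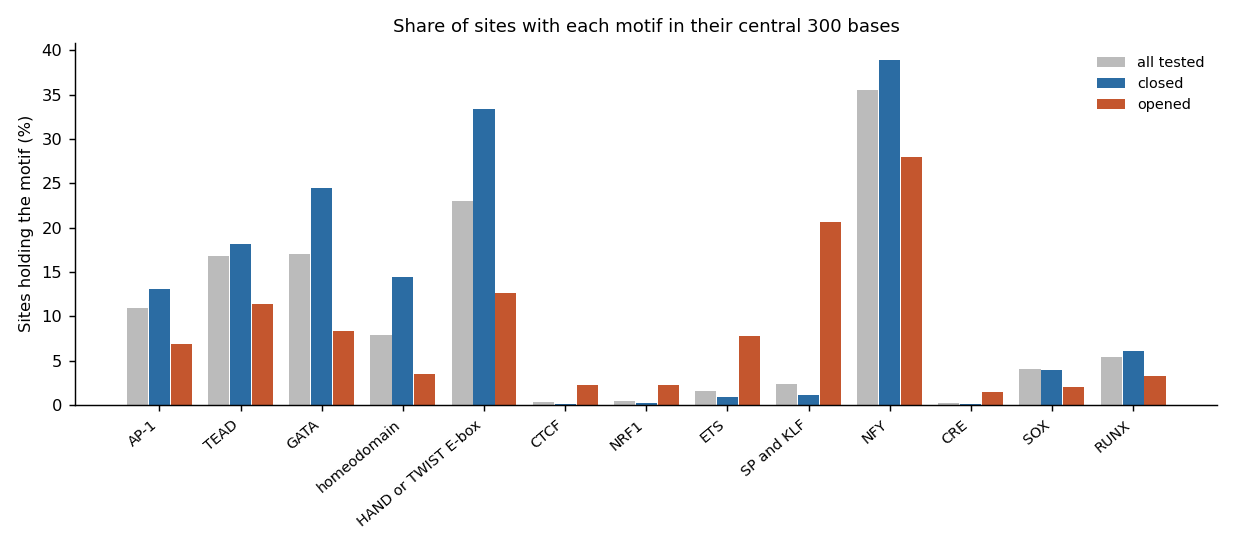
Share of sites that hold each of 13 motifs in their central 300 bases (vertical axis, %), for all tested, closed and opened sites. The HAND or TWIST E-box is at 33.4% of closed against 12.6% of opened sites, and the SP and KLF motif at 1.1% against 20.6%.

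The combination was then set against the groups that share its hairpins or its design. These comparisons use the same shARID1A/B.4.2 libraries. Against shARID1A.4 alone, 5825 sites were lower (1.63%) and 1105 higher (0.309%), and against shARID1B.2 alone 16921 were lower (4.74%) and 5095 higher (1.43%; edgeR, FDR under 0.01). With promoter scaling the counts against shARID1B.2 were 31644 lower and 468 higher. Leaving out libraries moved the smaller of these counts by over 1.5 times. Sites higher than in shARID1A.4 numbered 602 without shARID1A.4 replicate 2, 661 without its replicate 3, and 706 and 659 without shARID1A/B.4.2 replicates 1 and 3. Sites lower than in shARID1A.4 numbered 3704 without shARID1A.4 replicate 1, and 3819 and 3720 without shARID1A/B.4.2 replicates 1 and 2. Sites higher than in shARID1B.2 numbered 3073 and 1939 without shARID1B.2 replicates 1 and 3, and 2577 without shARID1A/B.4.2 replicate 3. Closed sites took 11.6% to 11.8% of the reads with shARID1A.4 and 13.9% to 14.1% with shARID1B.2, against 9.04% to 9.07% with the combination and 16.9% to 17.2% in Control. These sites were chosen by the fall from Control to the combination. That choice favours extreme values in these groups, so the place of the single hairpins between them is only a description. At the FOXD2 site the means were 1.47 CPM with shARID1A.4 and 4.15 CPM with shARID1B.2, and at the MAF site, of a large MAF factor, they were 4.18 and 10 CPM.

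Against the other combination, shARID1A/B.2.3, 5113 sites were lower (1.43%) and 13521 higher (3.79%; edgeR, FDR under 0.01). That balance turned with promoter scaling, to 10505 lower and 6547 higher, and was 8317 and 9987 without TMM and 7173 and 9961 with abundance-trended offsets. The lower count was 3050, 3141 and 3167 without shARID1A/B.4.2 replicates 1, 2 and 3, and the higher count was 8777 without shARID1A/B.2.3 replicate 2. Among sites also changed against Control, the widest differences downwards were near MDM2, BTLA and AKR1E2. A site in intron 7 of 7 of the carboxypeptidase gene CPM, named for the p53 regulator MDM2 (chromosome 12, 68856274 to 68857145), measured 3.56, 3.53 and 3.29 CPM in Control and 0.806, 0.874 and 1.02 CPM in the combination, with a mean of 4.83 CPM in shARID1A/B.2.3. It differed between combinations by a log2 difference of -2.42 ± 0.18 SE (edgeR FDR 2.71e-19). The site near BTLA, a lymphocyte co-inhibitory receptor gene (chromosome 3, 112445995 to 112447167), measured 15.8, 18 and 15.5 CPM in Control and 5.96, 5.89 and 5.52 CPM in the combination, against a mean of 29.9 CPM in shARID1A/B.2.3. The AKR1E2 site had a mean of 7.92 CPM there and values of 1.21, 1.61 and 1.76 CPM here. At these 3 sites the mean of the other combination lay above that of Control (3.46, 16.4 and 4.4 CPM) and the mean of this combination below it. In the opposite direction, an intron of LONP2 named for LOC100507577 (chromosome 16, 48300019 to 48300844) measured 0.385, 0.452 and 0.521 CPM in Control and 3.14, 2.35 and 3.11 CPM here, against a mean of 0.358 CPM in shARID1A/B.2.3 (log2 difference 2.96 ± 0.25 SE, edgeR FDR 1.63e-16).

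Whether the rises followed a hairpin was read from the libraries of single hairpins, which share none with Control or the combination. All 6 of the largest rises were higher with shARID1B.2 than with shARID1B.3, the other hairpin against the same gene. At RNF187 the means were 5.19 CPM with shARID1B.2 and 0.932 CPM with shARID1B.3 (log2 difference 2.5, edgeR FDR 2.87e-20), beside 1.54 CPM with shARID1A.4 and 0.775 CPM with shARID1A.2. The HERC2P10 site had 7.46 CPM with shARID1B.2 and a log2 difference of 3.09 between the ARID1B hairpins (edgeR FDR 7.28e-28). THUMPD1 had 3.25 CPM and a difference of 2.41 (edgeR FDR 9.08e-16), and UBE2K 2.65 CPM and 1.43 (edgeR FDR 2.99e-08). ARHGEF2 and RIMS2 differed between the hairpins of both genes, by 2.46 and 1.73 between the ARID1B hairpins and by 1.89 (edgeR FDR 2.22e-15) and 0.91 (edgeR FDR 0.00233) between the ARID1A hairpins.

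The same reading was made over all 1620 sites opened by a log2 change of at least 1. Of these, 411 (25.4%) were higher with shARID1B.2 than with shARID1B.3 and 18 (1.11%) were lower, against 4.25% and 2.96% of all tested sites. Between shARID1A.4 and shARID1A.2, 180 (11.1%) were higher and 7 (0.432%) lower, against 1.84% and 0.737% of all tested sites. Median levels at these sites were 0.553 CPM in Control, 1.32 with the combination, 1.03 with shARID1B.2, 0.784 with shARID1B.3, 0.901 with shARID1A.4, 0.779 with shARID1A.2 and 0.799 with shARID1A/B.2.3. Of the 13480 sites closed by a log2 change of at least 1, 2609 (19.4%) were higher and 1380 (10.2%) lower with shARID1B.2 than with shARID1B.3, and 698 (5.18%) were higher and 1134 (8.41%) lower with shARID1A.4 than with shARID1A.2, so that closed sites also differed between hairpins more often than the shares over all tested sites. They had a median of 2.88 CPM in Control, 1.1 with the combination, 1.15 with shARID1A/B.2.3, 1.55 and 1.68 with the ARID1A hairpins shARID1A.4 and shARID1A.2, and 1.97 and 1.76 with shARID1B.2 and shARID1B.3. Both sets of sites were chosen by the change from Control to the combination, which favours extreme medians in these groups. How far each hairpin lowered its transcript was not measured in these libraries.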

How the data were processed

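The authors mapped ATAC-seq reads to GRCh38, per the labels. Aligner and peak caller are not given in the sources used, nor is a shift of reads to the Tn5 cut. Deposited were raw counts from the authors, per library over 367900 consensus sites, with a HOMER annotation of the nearest gene. The deposited tables also hold the authors' normalized counts, log2 ratios and adjusted p-values, which were not used.

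Counts of all 21 libraries (7 groups of 3) were fitted in 1 model with the edgeR (4.0.16, R 4.3.3) quasi-likelihood test, TMM scaling and filterByExpr (minimum count 10). This left 357029 sites and removed 10871 (biological coefficient of variation 0.0817). P-values were adjusted by Benjamini-Hochberg over all tested sites, and SE was the absolute log2 change divided by the square root of F. DESeq2 (1.42.0) served as an alternative. CPM are TMM-scaled, and GC content, motifs and sequences were read from GRCh38. Overlaps used bedtools (2.31.1), and Python (3.11.15) with pandas (2.3.3), numpy (2.4.6) and matplotlib (3.10.9) was used for summaries. The scripts were tested on simulated data.

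Named sites were the 6 largest falls and 6 largest rises, and the 4 of each among promoter-TSS sites, that were called, had a mean of at least 2 CPM in the higher group and did not overlap between groups, with 1 site per gene. Further named sites were the sites of 16 gene lists with the smallest p, the ARID1A and ARID1B sites nearest to the TSS, the genes (at least 10 sites) and 1 Mb windows (at least 20 sites) with the largest shares of changed sites, and the 3 lowest and 3 highest differences from shARID1A/B.2.3. The comparison, members and lists were chosen with earlier results of these data known. The comparison of hairpins at opened sites was added after seeing the data. Some results are not reported here.

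Same-numbered libraries of the groups correlated at 0.00308, 0.0409 and 0.0239 in their deviations from the group means, so the numbers were not taken as pairs. Alternatives were other scalings, offsets for abundance and GC content, DESeq2, no filter, the compared groups alone, a replicate block, other thresholds and leaving out each library. Scaling by TMM takes the bulk of sites as stable, and a genome-wide shift is therefore invisible to it.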

Additional observations from a re-analysis of the deposited data

Results flagged for a closer look

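The results below were singled out because the combination differed from the other combination, shARID1A/B.2.3, under the same contrast with Control, by the edgeR test of the difference itself at FDR under 0.01. Both contrasts share the Control libraries, and the difference does not use them. The difference does use the libraries of this combination, and most named sites were chosen by the change of these libraries from Control. That choice favours higher values at rises and lower values at falls. The differences at those sites are therefore not independent of how the sites were chosen. In all, 5113 sites were lower and 13521 higher than with shARID1A/B.2.3, and that balance depends on the scaling.

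Of the named sites, the largest rises were higher than in the other combination, with log2 differences of 2.65 at RNF187, 3.03 at HERC2P10, 2.01 at THUMPD1, 2.49 at RIMS2, 2.87 at ARHGEF2 and 1.91 at UBE2K. The promoter rises at MIR3189, LOC102724524 and ZFR2 differed by 2.25, 1.15 and 0.81, and the LOC100507577 site by 2.96. In every Control library each of these sites lay at or below 2.26 CPM.

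Of the opened sites named from the gene lists, those that passed this test were higher as well. The log2 differences were 0.49 at BCL7A, 0.47 at SOX11, 0.45 at FOSL2, 0.47 at ITGA9, 0.69 at CDH22 and 0.49 at COL16A1. They were 1.29 at MMP10, 1.06 at KIT, 1.08 at GREM1, 0.36 at CCNE1, 1.23 at GABRA4 and 1.3 at ISG20. Others, such as JUND, UNC5B and CHGB, did not pass. Of all 14171 opened sites 30.9% were higher than in shARID1A/B.2.3 and 0.198% lower, with a median log2 difference of 0.3.

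Among closed sites the differences went both ways. The combination was lower by a log2 difference of -1.1 at ITGA4, -0.93 at COL1A2, -0.86 at COL21A1, -0.58 at SLIT2, -0.46 at MCM3, -0.82 at GABRP and -0.92 at RPS29. It was higher by 0.64 at TFAP2B, 0.56 at MMP14 and 0.62 at NRP2, where shARID1A/B.2.3 had fallen further. At MDM2, BTLA and AKR1E2, chosen for this difference, the values were -2.42, -2.37 and -2.37, and there the mean of shARID1A/B.2.3 lay above that of Control.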

How the results depend on the processing

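All counts rest on 3 libraries a group, and sites with few reads, such as the COMMD9 site with 3 to 7 reads per silenced library, carry more counting error. Of 1292 values of 68 sites named in the text under 19 alternatives, 1258 kept their direction and side of the threshold, 23 lost the call (18 of them to the limit of a log2 size of 1), 10 gained it, all at the ARID1A promoter site, and 1 reversed, namely the same site at -0.03 with GC offsets. The cause of the changes below was not tested.

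With TMM factors from promoter sites, 52684 sites closed and 2873 opened, 10505 were lower and 6547 higher than in shARID1A/B.2.3, and 31644 were lower and 468 higher than in shARID1B.2. The promoter share of closed sites, 1.2% as reported, was 2.21% with this scaling, 2.59% with abundance-trended offsets, 2.02% with GC offsets and 0.749% at a log2 size of 1 or more. The promoter share of opened sites, 35.1% as reported, was 36.1% with promoter scaling, 37.5% without TMM, 22.3% with abundance-trended offsets, 24.4% with GC offsets, 39.5% with DESeq2, 34.0% without the filter, 36.2% with the compared groups alone, 27.2% at FDR under 0.05 and 3.89% at a log2 size of 1 or more. Without TMM 8317 sites were lower than in shARID1A/B.2.3, and with the DESeq2 test 3137. Sites higher than in shARID1A.4 numbered 1692 with GC offsets and 3676 with the compared groups alone, and those higher than in shARID1B.2 numbered 3132 with abundance-trended offsets, 2233 with GC offsets and 11422 with the compared groups alone.

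At FDR under 0.05, 22244 sites opened, 11147 were lower and 21981 higher than in shARID1A/B.2.3, 8969 were lower and 2372 higher than in shARID1A.4, and 10654 were higher than in shARID1B.2. At a log2 size of 1 or more, 13480 closed and 1620 opened, 1800 were lower and 3179 higher than in shARID1A/B.2.3, 1715 and 286 against shARID1A.4, and 6212 and 248 against shARID1B.2, and 102 of the opened sites were higher with shARID1A.4 than with shARID1A.2.

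With a replicate block in the model of all libraries, 27224 sites closed and 15546 opened. The replicate block with all libraries moved no count of calls beyond 1.5 times. With both a replicate block and the compared groups alone, 27814 closed and 18091 opened, 8801 were lower and 3919 higher than in shARID1A.4, and 10426 were higher than in shARID1B.2, where the compared groups alone without a block gave 8708, 3676 and 11422. The numbers were not taken as pairs, as same-numbered libraries did not deviate together.

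Leaving out 1 library at a time gave 19935 to 23230 closed and 10316 to 13218 opened sites, 3050 to 4476 lower and 8777 to 14104 higher than in shARID1A/B.2.3, 3704 to 4580 and 602 to 773 against shARID1A.4, 11567 to 13762 and 1939 to 3979 against shARID1B.2, and promoter shares of 1.08% to 1.33% of closed and 35.9% to 37.4% of opened sites. Among the sites opened at that size, 338 to 382 were higher with shARID1B.2 than with shARID1B.3 and 123 to 151 with shARID1A.4 than with shARID1A.2.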
